A study of Mus musculus with 6 samples.

Results

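The genes described here are those of the lysosome and of autophagy: the subunits of the vacuolar proton pump, the cathepsins, the 2 LAMP membrane proteins, the core autophagy genes, the receptor Sqstm1 and the transcription factors Tfeb and Tfe3. The rule that picked them used gene symbols alone and no measured value, but it was set with earlier results of these data known. In all, 77 of the 49671 genes in the count table met the rule. RNA had been sequenced from pancreata of C57BL/6J mouse embryos at 14.5 dpc (days post coitum), in 3 control libraries and in 3 libraries treated with 10 µM AMI-5, a small-molecule inhibitor of protein methyltransferases. The study asked how AMI-5 affects differentiation of the pancreas. The labels refer the culture and the treatment to publications not used here, and no allele or transgene is given for either group. They do not say whether replicates were separate animals or cultures, so the p-values reflect the variation among these libraries alone, which may be technical. They also give an older version of the library kit for A samples. The control titles carry the mark A and the AMI-5 titles the mark Am, so this may mean the controls alone, and on that reading kit and treatment cannot be told apart.

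Lysosomes are acidic organelles in which hydrolases break down proteins, lipids and sugars. The acid comes from the V-ATPase, a rotary pump with a cytosolic V1 sector that splits ATP and a membrane V0 sector that carries protons. In autophagy, the ULK and Beclin 1 complexes start a membrane sac, 2 ubiquitin-like conjugation systems attach proteins of the ATG8 family to its lipids, receptors such as p62 bring cargo, and the closed autophagosome fuses with the lysosome. TFEB and TFE3 are transcription factors that bind E-boxes around the bases CACGTG in the promoters of many lysosomal genes. In the pancreas, acinar cells, which make digestive enzymes, use lysosomes and autophagy to turn over zymogen granules, and tissue macrophages are rich in cathepsins.

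The promoter bases that match this E-box are shown because they are the feature that many lysosomal genes share and that the choice by symbol did not use. RefSeq promoter windows (build GRCm38.p6, from 250 bases before to 50 after a start site) were matched for 62 of the 77 genes by symbol. CACGTG, which reads the same on both strands, was present in 13 of these 62 genes (21.0%), against 8.09% of all 27025 genes with a window and 9.18% of 16455 protein-coding genes. The longer TCACGTGA, which contains it, was present in 6 of 62 (9.68%), against 1.12% and 1.45%. The 6 genes are the first 6 below, followed by Lamp1 with 4 copies of the shorter motif, Atp6v0b with 2 and Ctsl with 1. Each line runs 5′ to 3′ on the gene's strand, and capitals mark each match in it. Ctsd has a further CACGTG, at position -245 from the start site, which is not shown.
Atp6v1a (chr16:44139365-44139410, minus strand): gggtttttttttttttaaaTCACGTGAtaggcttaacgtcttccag
Atp6v0d1 (chr8:105566061-105566087, minus strand): gagccaggccctactgcggTCACGTGA
Atp6v0e (chr17:26676379-26676405, plus strand): cggggctttagcgcgccgaTCACGTGA
Ctsa (chr2:164833741-164833784, plus strand): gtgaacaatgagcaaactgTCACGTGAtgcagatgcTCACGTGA
Ctsd (chr7:142387900-142387945, minus strand): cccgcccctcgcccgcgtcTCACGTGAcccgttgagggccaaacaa
Atg3 (chr16:45158715-45158783, plus strand): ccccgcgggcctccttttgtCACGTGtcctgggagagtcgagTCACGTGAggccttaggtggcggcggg
Lamp1 (chr8:13159080-13159160, plus strand): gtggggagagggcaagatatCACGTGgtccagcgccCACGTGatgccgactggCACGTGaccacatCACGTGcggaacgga
Atp6v0b (chr4:117887330-117887385, minus strand): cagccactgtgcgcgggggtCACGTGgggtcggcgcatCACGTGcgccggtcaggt
Ctsl (chr13:64370731-64370770, minus strand): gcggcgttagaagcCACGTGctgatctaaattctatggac
Of the 13 genes with a match, 4 were higher with AMI-5 (Atp6v1a, Ctsd, Ctsl and Atg5), 1 was lower (Atp6v0b) and 8 did not pass the test described next. Among all protein-coding genes tested, 20.1% were higher and 30.6% lower. A match is a string of letters in a window and says nothing about binding.

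Gene counts summed to 12445425 to 13321899 per control library and to 22894312 to 24805188 per AMI-5 library, so that low genes were measured less precisely in the controls. By edgeR's quasi-likelihood test, 27.5% of the 17519 genes tested rose with AMI-5 and 26.6% fell, with p adjusted by the Benjamini-Hochberg method and a threshold of 0.05. Among the 1679 processed pseudogenes tested, 1576 were higher and 30 lower (some of them are copies of the genes described here). All 10 markers of pancreatic epithelium had reads in every library, and 1 of them was higher (Cpa1, 0.33, a call lost without control replicates 1 or 3 or AMI-5 replicates 1 or 3) and 7 lower with AMI-5, with a median log2 fold change of -0.33. Pdx1 (-0.65), Nkx6-1 (-0.86), Onecut1 (-0.87) and Epcam (-0.37) were lower in this fit and in the fit with GC and length trends removed described near the end, which gave 0 higher and 6 lower. Markers of red blood cells were low, at 7.65 to 15.2 CPM in sum in the controls and 58.2 to 181 CPM with AMI-5 (highest in replicate 2). The 3 tested of 5 were all higher, but 0 were without control replicate 1 or control replicate 2 and 1 without control replicate 3. Levels below are CPM, read counts scaled to a common library size with edgeR's TMM factors, and fold changes are log2 of AMI-5 over control with their standard error (SE).

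Of the 77 lysosome and autophagy genes, 67 passed the filter on low counts and were tested. With AMI-5, 25 were higher (37.3%), 14 were lower (20.9%) and 28 did not pass the test. The higher genes include Atg4a-ps, annotated as protein-coding but named as a pseudogene of Atg4a. With pseudogene copies added to their genes, 25 of 66 were higher and 14 lower. Among all 14571 protein-coding genes tested, 20.1% were higher and 30.6% lower. The median log2 fold change was -0.006 over the 67 genes, -0.06 over protein-coding genes and -0.001 over all genes. In 25 of the 67 genes every AMI-5 library lay above every control library and in 18 below, and in 24 the groups overlapped. Over protein-coding genes these shares were 24.1% and 35.2%. Scaling by library totals alone, which moves the median of all genes to -0.09, gave 16 higher and 23 lower members (23.9% and 34.3%), beside 14.5% and 38.9% of protein-coding genes. Without AMI-5 replicate 2 the lower genes numbered 9, and leaving out any other library gave 10 to 13. The median coefficient of variation among libraries of a group was 5.37% in controls and 4.96% with AMI-5.

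**Figure D1:**
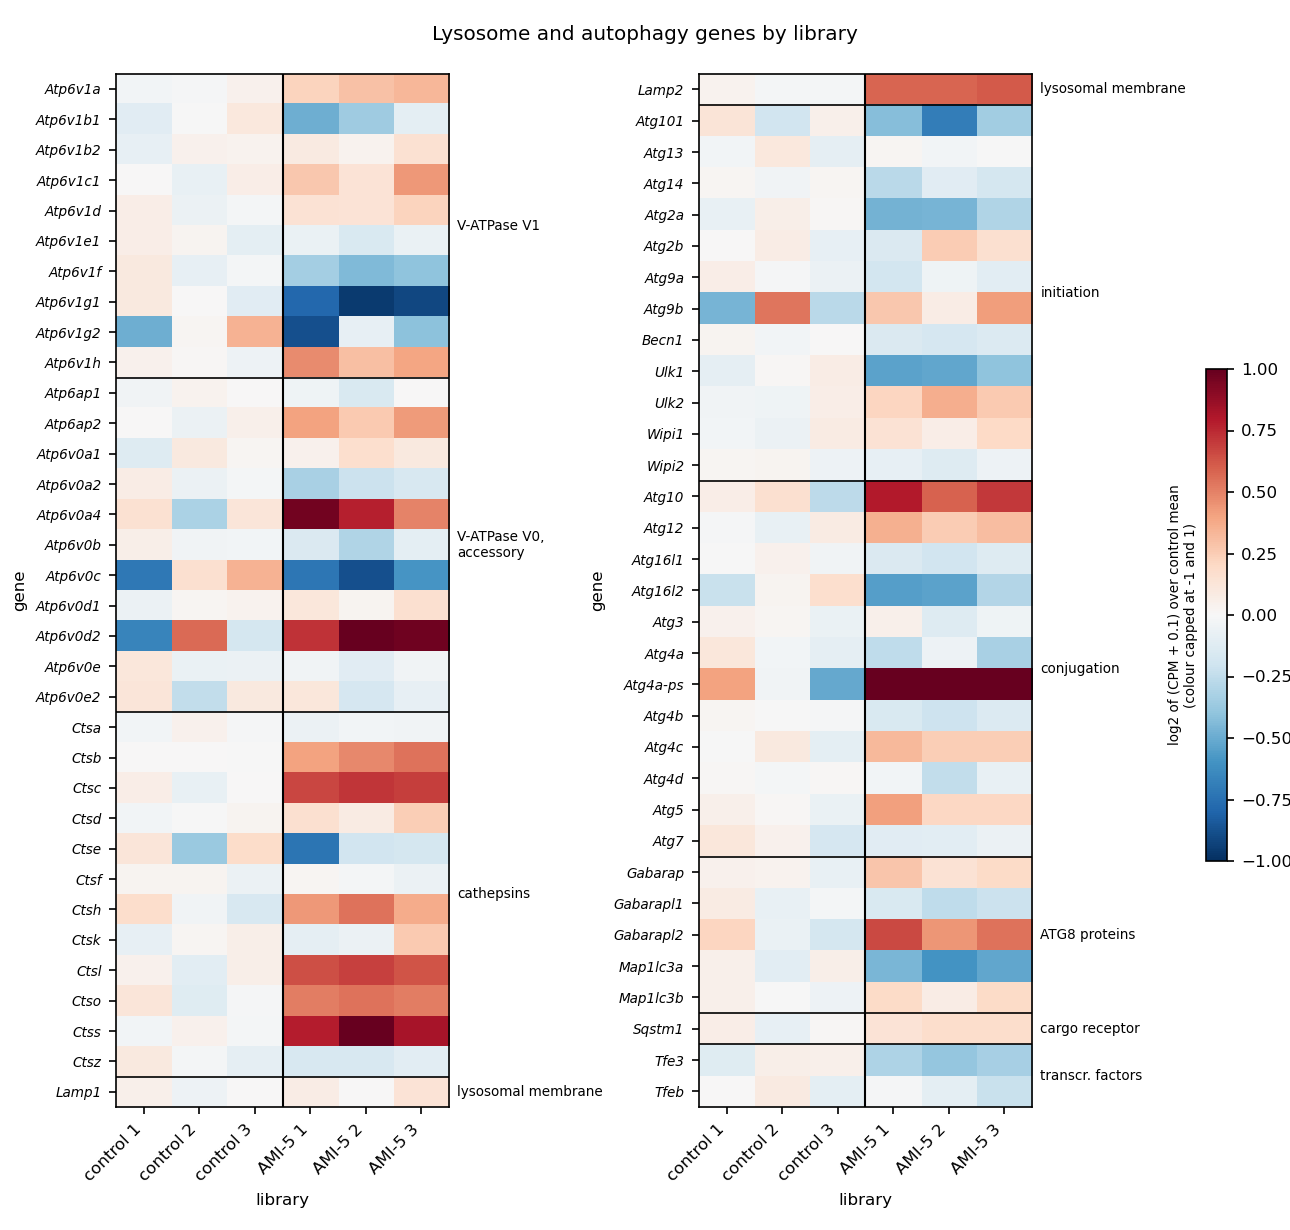
Log2 of the level in each library (CPM plus 0.1) over the control mean, for the 67 tested genes in rows by role and the 6 libraries in columns, with colours capped at -1 and 1. The cathepsins Ctsb, Ctsc, Ctsl and Ctss and the membrane gene Lamp2 are red in all 3 AMI-5 libraries, and Atp6v1g1, Map1lc3a and Ulk1 are blue in all 3.

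Most of the tested cathepsins, the proteases of the lysosome, were higher with AMI-5. Of 12 tested, 7 were higher (58.3%), 0 were lower and 5 did not pass, with a median log2 fold change of 0.31. Among protein-coding genes 20.1% were higher and 30.6% lower. At an unadjusted p under 0.05 edgeR called 7 higher and 1 lower, and DESeq2 and limma voom also gave 7 higher and 0 lower. Summed over the family, the level was 2105, 2044 and 2084 CPM in the controls, and with AMI-5 it was 2627, 2697 and 2754 CPM, so the groups did not overlap. Direction depended on the scaling for some members: totals-only scaling gave 6 higher and 1 lower, and the removal of GC and length trends described near the end gave 5 higher and 4 lower. With the trends removed among genes with little shared sequence it was 4 higher and 0 lower of 8.

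Ctsb (ENSMUSG00000021939, chromosome 14, 63122462 to 63145919, mm10), a cysteine protease of the lysosome, was at 659, 659 and 656 CPM in the controls and at 868, 916 and 957 CPM with AMI-5. Its controls were nearly identical, and every AMI-5 library lay above them (log2 fold change 0.47, SE 0.06, adjusted p = 2.16e-05). Ctsl (ENSMUSG00000021477, chromosome 13, 64363214 to 64370306), which also cleaves proteins outside lysosomes, was at 416, 374 and 420 CPM and then at 629, 646 and 623 CPM. The groups were again apart (log2 fold change 0.65, SE 0.06, adjusted p = 2.52e-06), and the value was 0.08 (adjusted p = 0.252) with the trends removed. An antisense gene covers 25.2% of the 50-base stretches (50-mers) of Ctsl and Fdft1 holds 12.1% of those of Ctsb. The labels describe a strand-specific kit, but the strand setting of the counting is not given in the sources used here, so reads of overlapping genes may be shared or lost.

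Ctsc, dipeptidyl peptidase 1, which activates serine proteases of immune cells, was at 95.0, 86.1 and 90.9 CPM in controls and at 144, 149 and 146 CPM with AMI-5. Its rise (0.69, SE 0.06, adjusted p = 1.01e-06) kept its call in all 18 alternative fits. Ctss, a cathepsin of antigen-presenting cells, had the largest rise of the family, from 36.6, 38.5 and 36.8 CPM to 64.3, 75.3 and 66.2 CPM. The log2 fold change of 0.88 (SE 0.07, adjusted p = 8.36e-07) became -0.45 (adjusted p = 0.000175) after trend removal over all genes, and was 0.68 (adjusted p = 4.82e-05) with the trends removed among genes with little shared sequence. Ctsd, the main aspartic protease, was at 380, 386 and 394 CPM and then at 432, 409 and 459 CPM. This small rise (0.17, SE 0.06, adjusted p = 0.0301) did not overlap the controls, but the call ended with totals-only scaling (0.07) and without control replicate 1 (0.15), control replicate 2 (0.16) or AMI-5 replicate 3 (0.14). A protein-coding gene model at the same locus holds 32.4% of the 50-mers of Ctsd.

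Named after their values were seen, Ctsh (0.45) and Ctso (0.52), both cysteine proteases, complete the 7 higher genes. With the trends removed Ctso was at 0.14 and not called over all genes. Among genes with little shared sequence it was at 0.34 (adjusted p = 0.00852). Ctsz, another cysteine protease, was at 197, 182 and 173 CPM and then 165, 165 and 171 CPM, below the controls in every library but short of the threshold (-0.14, adjusted p = 0.0640). It passed without control replicate 3 (-0.19, adjusted p = 0.0312) and with totals-only scaling (-0.23, adjusted p = 0.00333). With the trends removed it was lower over all genes (-0.83, adjusted p = 2.13e-08) and not called among little-shared genes (0.03). The other 4, Ctsa, Ctse, Ctsf and Ctsk, overlapped between groups. On the scale of CPM per kilobase of merged exons, which allows genes to be compared, Ctsl held 26.5% ± 1.23 (SD, n = 3) of the cathepsin total in controls, and with AMI-5 it held 32.6% ± 0.92. The share of Ctsd was 21.3% ± 0.62 and 18.7% ± 0.98, that of Ctsb 18.0% ± 0.36 and 19.5% ± 0.58, and that of Ctsz 16.5% ± 0.95 and 11.7% ± 0.13. In both groups these 4 genes thus held most of the cathepsin level.

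Macrophage genes moved in the same direction. Of 16 macrophage markers, 8 were higher and 0 lower (10 and 0 at an unadjusted p under 0.05 in edgeR, 10 and 0 in DESeq2, 9 and 0 in limma voom). Among protein-coding genes 20.1% were higher and 30.6% lower. None of the markers was at 0, and their summed level was 601 to 630 CPM among controls and 832 to 933 CPM among AMI-5 libraries. The mannose receptor Mrc1 and the lysozyme Lyz2 had the largest rises (1.34 and 0.85), while the complement gene C1qa (0.10), Tyrobp (-0.07) and Cx3cr1 (0.03) did not pass. With the trends removed over all genes, 5 markers were higher and 7 lower, Lyz2 (-0.48, adjusted p = 0.000295) and C1qa (-0.95) among the lower ones and Mrc1 at 0.96. Among little-shared genes, where Lyz2 was not tested, trend removal gave 9 higher and 0 lower of 14. The summed level of acinar markers was higher too, at 54370 to 75690 CPM in the controls and 124100 to 154000 CPM with AMI-5. Of these 12 markers, 7 were called higher and 0 lower (7 and 1 at an unadjusted p under 0.05 in edgeR, 7 and 0 in DESeq2, 8 and 1 in limma voom). Trend removal gave 5 higher and 2 lower over all genes, and 6 and 0 of 11 among little-shared genes. Ptf1a (-0.09, adjusted p = 0.53) and Rbpjl (-0.54, adjusted p = 0.0803), both transcription factors, did not pass as counted. The higher acinar markers numbered 4 without AMI-5 replicate 1, without AMI-5 replicate 3 or with the replicate block, and 5 to 9 without any other library. The part of these cell types in the cathepsin rise was not tested, and in bulk tissue more cells of a type cannot be told apart from more RNA per cell.

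**Figure D2:**
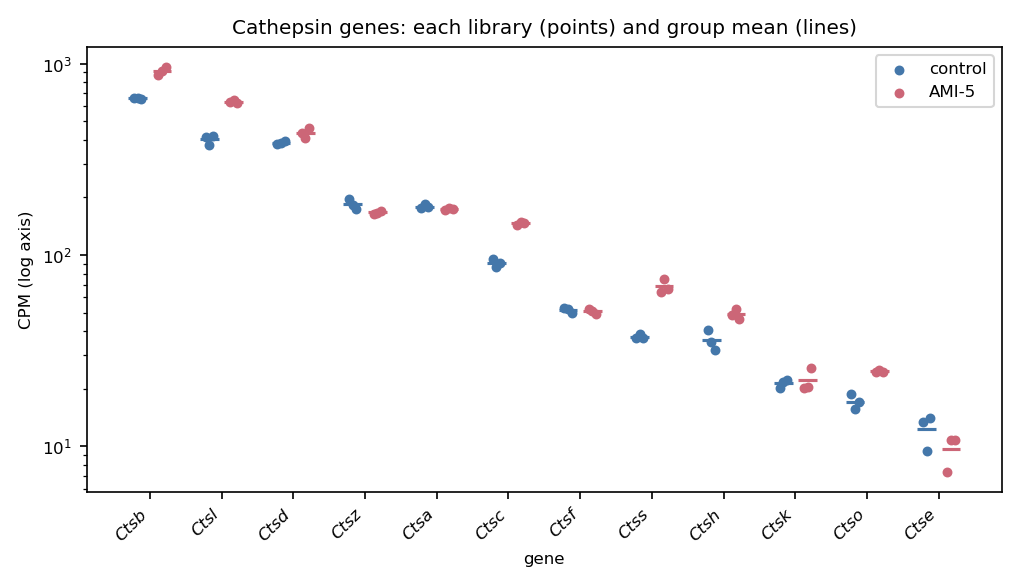
Levels of the 12 tested cathepsin genes in CPM on a log axis, with 1 point per library, blue for control and red for AMI-5, and a line at each group mean. Ctsb, Ctsl, Ctsc and Ctss stand above their controls in all 3 AMI-5 libraries, while Ctsa, Ctsf and Ctsk overlap.

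The 2 LAMP genes differed from each other. Lamp2 (ENSMUSG00000016534, chromosome X, 38401357 to 38456454), a membrane glycoprotein needed for fusion with autophagosomes and for chaperone-mediated autophagy, was at 247, 238 and 239 CPM in controls and at 362, 362 and 370 CPM with AMI-5. The libraries of each group lay close together and far from the other group (log2 fold change 0.60, SE 0.05, adjusted p = 1.47e-06), and the call held in all 18 alternative fits, at 0.33 with the trends removed. Lamp1, its abundant relative, was at 424, 396 and 410 CPM and at 432, 410 and 451 CPM. Its groups overlapped (0.07, SE 0.06, adjusted p = 0.313), the sign turned with totals-only scaling (-0.02), and with the trends removed it passed the test (0.14, adjusted p = 0.0472). Lamp1 is the gene with 4 copies of CACGTG in its promoter window, and a neighbour covers 5.91% of its 50-mers.

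The V1 sector, which binds and splits ATP, had 4 higher and 2 lower genes of 10 tested. It had 2 and 3 with totals-only scaling, and 2 and 2 without control replicate 2. For comparison, 20.1% of protein-coding genes were higher and 30.6% lower, or 14.5% and 38.9% with totals-only scaling. The sector's summed level was 667 ± 7.00 CPM in the control group and 669 ± 22.1 CPM in the AMI-5 group (SD, n = 3). Atp6v1a, the catalytic A subunit with a TCACGTGA in its promoter window, was at 108, 109 and 114 CPM and then at 129, 135 and 139 CPM (0.28, SE 0.06, adjusted p = 0.00108). Atp6v1h, a regulatory subunit, rose from 64.5, 63.1 and 60.3 CPM to 87.2, 77.2 and 82.2 CPM (0.39, SE 0.06, adjusted p = 0.000247). Neither gene overlapped between groups. With the trends removed over all genes Atp6v1a was at 0.09 and Atp6v1h at 0.17, neither past the threshold. Trend removal among little-shared genes left Atp6v1a called (0.21, adjusted p = 0.00836) and Atp6v1h not called (0.20, adjusted p = 0.0561). Atp6v1c1, the C subunit that joins V1 to V0, was at 41.5, 39.2 and 43.4 CPM and at 49.9, 45.6 and 56.0 CPM. Its call (0.29, SE 0.08, adjusted p = 0.00985) ended without control replicate 2 (0.24) and with totals-only scaling (0.19). With the trends removed the value was -0.17 over all genes and 0.12 among little-shared genes, neither called.

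The 2 lower V1 genes encode small subunits. Atp6v1g1 (ENSMUSG00000039105, chromosome 4, 63544772 to 63550750), a G subunit of the peripheral stalk, fell from 97.6, 91.3 and 84.3 CPM to 53.0, 47.0 and 48.4 CPM. As counted, this was the largest fall among all 67 genes (-0.88, SE 0.07, adjusted p = 7.58e-07), and the lowest control lay far above the highest AMI-5 library. With pseudogene copies added the fall was -0.46, and the largest was that of Map1lc3a (-0.52). Atp6v1f, the F subunit of the central rotor, was at 76.3, 67.7 and 70.5 CPM and then at 56.5, 52.6 and 54.1 CPM (-0.39, SE 0.06, adjusted p = 0.000237). Both share sequence with processed pseudogenes (19.1% and 11.2% of their 50-mers), and their values were -2.40 and -1.77 with the trends removed. In that fit, over all genes, 4 V1 genes were lower, the other 2 being Atp6v1d and Atp6v1e1. As counted, Atp6v1d was higher (0.17, adjusted p = 0.0411) and Atp6v1e1 was not called (-0.10). Atp6v1d thus turned, to -1.26 (adjusted p = 1.1e-09) with the trends removed over all genes. Trend removal among little-shared genes, where Atp6v1g1 and Atp6v1f were not tested, gave 1 higher and 0 lower V1 genes of 8.

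The V0 sector and the accessory proteins had 3 higher and 3 lower genes of 11 tested (2 and 5 with totals-only scaling, 2 and 1 without control replicates 2 or 3 or AMI-5 replicates 1 or 2). These shares, 27.3% each, were near the 20.1% and 30.6% of protein-coding genes. In sum the genes were at 657 ± 3.95 and 655 ± 24.7 CPM (SD, n = 3). Atp6ap2, the prorenin receptor and a V-ATPase assembly factor, rose from 67.2, 64.2 and 69.5 CPM to 88.5, 80.1 and 89.9 CPM (0.36, SE 0.06, adjusted p = 0.000460), and was at 0.03 with the trends removed. The other 2 higher genes encode subunits known from specialised cells and had few reads. Atp6v0d2, known from osteoclasts and macrophages, had 76 reads in all controls and 253 with AMI-5 (1.16, 2.84 and 1.67 CPM against 3.19, 4.10 and 3.80 CPM). Its log2 fold change was 0.96 (SE 0.28, adjusted p = 0.0116), and it was not called after trend removal over all genes (0.64, adjusted p = 0.0618) or among little-shared genes (0.62, adjusted p = 0.108). Atp6v0a4, the a4 subunit of kidney intercalated cells, had 19 and 60 reads, and its call (0.87, SE 0.34, adjusted p = 0.0499) ended without any one of the 3 controls (0.70 to 0.96, adjusted p of 0.0782 to 0.164), with totals-only scaling and in DESeq2 and limma voom.

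Atp6v0a2, the Golgi and endosome form of the a subunit, fell from 77.5, 70.6 and 72.3 CPM to 58.7, 63.1 and 65.8 CPM (-0.23, SE 0.06, adjusted p = 0.00932), and no library crossed over. On the scale of CPM per kilobase, its paralogue Atp6v0a1 held 53.7% ± 3.20 of the a subunits taken by the rule in controls, and 59.2% ± 1.10 under AMI-5 (SD, n = 3), with a2 at 45.9% ± 3.13 and 40.0% ± 1.22. The a3 subunit, Tcirg1, carries another symbol and is not among these genes. Atp6v0b, the c'' ring subunit, was at 115, 108 and 108 CPM and at 99.3, 89.3 and 103 CPM. That fall (-0.18, SE 0.07, adjusted p = 0.0370) lost its call in 10 of 16 alternatives, among them the fits without each control (-0.20 to -0.15) and without AMI-5 replicate 1 (-0.18) or AMI-5 replicate 2 (-0.10). Atp6v0d1, the common d subunit, with TCACGTGA across its start site, was at 79.2, 83.2 and 84.4 CPM and at 88.9, 83.7 and 92.0 CPM, overlapping and not called (0.10, adjusted p = 0.176). With the trends removed over all genes it was lower (-0.38, adjusted p = 0.000152), and among little-shared genes it was at 0.12 (adjusted p = 0.154).

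Of the 12 initiation genes tested, 1 was higher (8.33%) and 4 were lower (33.3%), so the lower share was near the 30.6% of protein-coding genes. The higher share among protein-coding genes was 20.1%. Totals-only scaling gave 1 higher and 7 lower (8.33% and 58.3%), beside 14.5% and 38.9% of protein-coding genes. Upper-quartile scaling gave 2 and 3, and 2 were higher without control replicates 2 or 3 or AMI-5 replicates 1 or 2. The summed level was 664, 671 and 669 CPM in controls, and with AMI-5 it was 595, 606 and 629 CPM. With the trends removed over all genes the count was 5 higher and 1 lower, and among little-shared genes it was 2 and 3 of 8. The direction of the group thus depended on that step. Ulk1 (ENSMUSG00000029512, chromosome 5, 110784488 to 110810097), the kinase that starts autophagy, was at 92.1, 98.8 and 103 CPM and then at 67.6, 68.5 and 74.0 CPM. Every AMI-5 library lay below the controls (-0.48, SE 0.06, adjusted p = 5.1e-05), with a value of -0.06 (adjusted p = 0.354) after trend removal over all genes and -0.16 (adjusted p = 0.0325) after trend removal among little-shared genes. Its paralogue Ulk2 moved the other way, from 41.4, 41.1 and 44.4 CPM to 49.2, 54.5 and 50.7 CPM (0.28, SE 0.07, adjusted p = 0.00301), and kept its call in all 18 alternative fits.

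Atg101, a partner of ATG13 in the ULK complex, fell from 42.8, 34.2 and 40.5 CPM to 29.1, 24.2 and 30.8 CPM (-0.48, SE 0.11, adjusted p = 0.00284). It too kept its call in all 18. Atg2a, a lipid transfer protein that feeds the growing membrane, fell from 59.9, 65.7 and 63.6 CPM to 45.4, 45.7 and 51.1 CPM (-0.41, SE 0.07, adjusted p = 0.000263). With the trends removed Atg2a was at 0.17 (adjusted p = 0.0305) over all genes and -0.04 (adjusted p = 0.585) among little-shared genes. Becn1, Beclin 1 of the lipid kinase complex, was at 96.2, 92.9 and 94.7 CPM and at 85.5, 84.0 and 86.1 CPM. Although the groups were apart, its small fall (-0.15, SE 0.05, adjusted p = 0.0300) lost its call in 11 of 16 alternatives, among them the fits without control replicates 1 or 3 or without any one AMI-5 library (-0.15 to -0.12), and Cntd1 covers 36.8% of its 50-mers.

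The conjugation genes had 5 higher (41.7%) and 2 lower (16.7%) of 12 tested, against 20.1% and 30.6% of protein-coding genes. The higher ones include Atg4a-ps, named as a pseudogene of Atg4a. With pseudogene copies added to their genes the count was 5 and 2 of 11. Totals-only scaling gave 3 and 4, and upper-quartile scaling gave 5 and 1. The lower genes numbered 1 without control replicate 1 or AMI-5 replicates 2 or 3. Atg12, the ubiquitin-like protein joined to ATG5, was at 30.2, 28.9 and 32.3 CPM and at 39.1, 36.4 and 37.9 CPM (0.31, SE 0.07, adjusted p = 0.00309). Atg5 itself was at 29.6, 28.8 and 27.4 CPM and at 38.0, 33.0 and 33.0 CPM (0.28, SE 0.08, adjusted p = 0.0118). Atg10, the E2-like enzyme that joins the pair, rose from 4.96, 5.32 and 3.94 CPM to 8.30, 7.17 and 7.81 CPM (0.71, SE 0.15, adjusted p = 0.00203). These 3 genes of one conjugate lay above their controls in every AMI-5 library, yet with the trends removed over all genes Atg12 was at 0.02, Atg5 at -0.02 and Atg10 at -0.47 (adjusted p = 0.0194). Trend removal among little-shared genes left them at 0.08, 0.10 and 0.36 (adjusted p = 0.0839 for Atg10), none of them called.

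Of the other enzymes, Atg7, the E1-like enzyme of both systems, was at 24.6, 23.5 and 20.3 CPM and at 21.1, 21.2 and 22.0 CPM (-0.09, adjusted p = 0.421). Atg3, the E2-like enzyme for ATG8 proteins, was at 46.6, 45.8 and 43.1 CPM and at 46.9, 41.2 and 43.9 CPM (-0.04, adjusted p = 0.662), with a sign that turned without AMI-5 replicate 2 (0.03) and with upper-quartile scaling. Both genes overlapped between groups. With the trends removed Atg3 was lower, at -0.28 (adjusted p = 0.00328) over all genes and -0.31 (adjusted p = 0.00299) among little-shared genes. Atg16l2, a paralogue of the scaffold Atg16l1, fell from 20.5, 24.5 and 27.1 CPM to 16.3, 16.6 and 19.6 CPM (-0.46, SE 0.11, adjusted p = 0.00500; -0.18 with the trends removed). Atg4b, the main protease that trims ATG8 proteins, was at 69.4, 68.1 and 67.7 CPM and at 61.6, 59.1 and 62.1 CPM. Its fall (-0.17, SE 0.05, adjusted p = 0.0224) lost its call in 9 of 18 alternatives, among them the fits without control replicate 1 (-0.16), without AMI-5 replicate 2 (-0.12) and without AMI-5 replicate 3 (-0.16).

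All 5 ATG8 genes passed the test, 3 higher and 2 lower, against 20.1% and 30.6% of protein-coding genes (1 and 2 with totals-only scaling; 1 lower without control replicate 1 or AMI-5 replicates 2 or 3). Gabarap (ENSMUSG00000018567, chromosome 11, 69991143 to 69994951) was at 225, 224 and 208 CPM and at 265, 242 and 250 CPM (0.21, SE 0.06, adjusted p = 0.0111). Map1lc3b, the LC3B that most autophagy assays follow, was at 85.6, 82.3 and 79.5 CPM and at 94.1, 86.8 and 94.1 CPM. Its rise (0.15, SE 0.06, adjusted p = 0.0469) was close to the threshold and lost its call without control replicates 2 or 3 or AMI-5 replicates 1 or 3 (0.12 to 0.15), in DESeq2 (0.17) and with totals-only scaling (0.06). Gabarapl2 rose from 17.8, 14.7 and 13.6 CPM to 24.2, 20.8 and 22.4 CPM (0.55, SE 0.11, adjusted p = 0.00119), the largest rise of the 5.

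Map1lc3a (ENSMUSG00000027602, chromosome 2, 155276297 to 155278073), which encodes LC3A, fell from 45.7, 41.0 and 46.0 CPM to 32.2, 29.3 and 30.8 CPM (-0.52, SE 0.07, adjusted p = 8.13e-05). The groups were well apart, and the fall kept its call in all 18 alternative fits. Gabarapl1 was at 113, 101 and 105 CPM and at 95.7, 89.5 and 91.6 CPM (-0.21, SE 0.06, adjusted p = 0.0130), a call that ended without control replicate 1 (-0.16), without AMI-5 replicate 2 (-0.16) and without AMI-5 replicate 3 (-0.18). Trend removal over all genes turned Gabarap to -0.30 (adjusted p = 0.000399), and trend removal among little-shared genes left it at 0.15 (adjusted p = 0.0478).

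Per kilobase of merged exons, Gabarap was the leading ATG8 gene and its share was larger with AMI-5. It held 51.7%, 54.3% and 51.1% of the family's level in the controls and 59.5%, 59.4% and 59.2% with AMI-5. Map1lc3a held 16.4%, 15.5% and 17.7% and then 11.3%, 11.2% and 11.4%, and Gabarapl1 went from 23.3% ± 0.74 to 19.9% ± 0.22 (SD, n = 3). Map1lc3b and Gabarapl2 held 4.84% and 2.90% in controls and 5.29% and 4.18% with AMI-5. No share overlapped between groups. With 3 libraries against 3, an exact permutation test of a share cannot give a two-sided p below 0.1, and the merged exon length of a gene with a long 3′ UTR lowers its level on this scale.

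**Figure D3:**
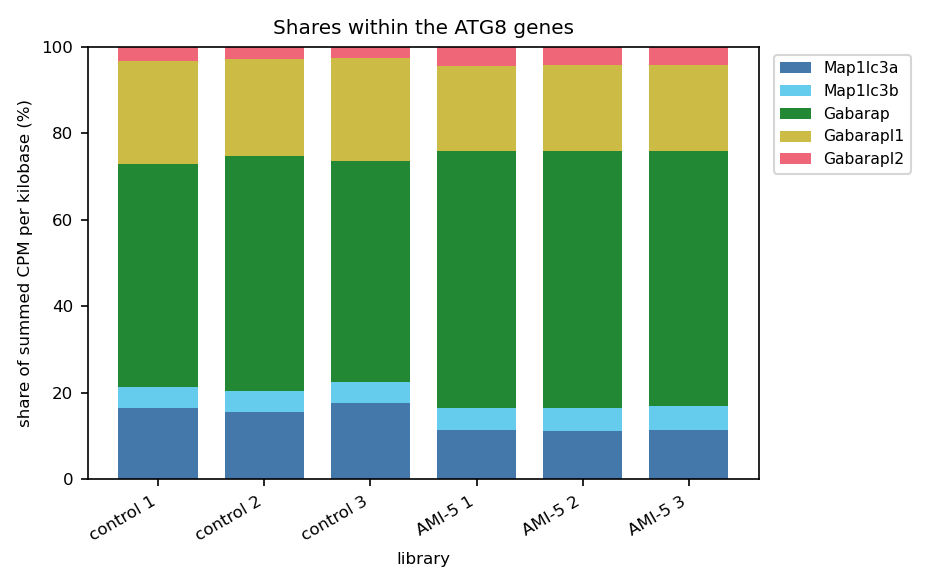
Shares of the 5 ATG8 genes in their summed CPM per kilobase of merged exons, in percent, as stacked bars for each of the 6 libraries. Gabarap fills 51.1% to 54.3% of the control bars and 59.2% to 59.5% of the AMI-5 bars, and the Map1lc3a segment is shorter in all 3 AMI-5 libraries.

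Sqstm1 encodes p62, the receptor that links ubiquitinated cargo to ATG8 proteins and is itself degraded by autophagy. It was at 301, 271 and 290 CPM and at 316, 326 and 326 CPM, higher in each AMI-5 library (0.16, SE 0.06, adjusted p = 0.0285). The call ended without control replicate 2 (0.12), control replicate 3 (0.17) or AMI-5 replicate 3 (0.17) and with totals-only scaling (0.07), whereas with the trends removed the value was 0.40 (adjusted p = 3.25e-05). Mrnip covers 15.5% of its 50-mers.

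Neither transcription factor of the lysosomal programme was higher as counted (0 of 2 in edgeR, at an unadjusted p under 0.05, in DESeq2 and in limma voom). Tfe3 fell from 67.3, 76.2 and 75.8 CPM to 59.0, 55.8 and 58.2 CPM (-0.34, SE 0.06, adjusted p = 0.000750), with no overlap, and was at -0.002 (adjusted p = 0.983) with the trends removed. Tfeb was at 13.0, 13.8 and 12.1 CPM and at 12.9, 12.1 and 11.2 CPM. Its groups overlapped (-0.11, SE 0.11, adjusted p = 0.410), and with the trends removed it was at 0.58 (adjusted p = 0.000652) over all genes and 0.31 (adjusted p = 0.0464) among little-shared genes. Tfeb has the highest GC content of the tested members, at 61.3%, followed by Map1lc3a at 61.1%.

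Several members have processed pseudogenes, intronless copies elsewhere in the genome, that also had reads. Gm13453 shares 19.2% of the 50-mers of Atp6v1g1 and went from 1.09, 1.24 and 0.985 CPM to 16.1, 17.9 and 16.6 CPM. With this copy and Gm12344 added, Atp6v1g1 was at 92.3 ± 6.70 and 66.9 ± 2.42 CPM (SD, n = 3), and its fall shrank from -0.88 to -0.46 (adjusted p = 9.23e-05). For Gabarapl2, adding Gm3724, Gm6051 and Gm5829 raised the log2 fold change from 0.55 to 1.19 (adjusted p = 1.22e-06), at 17.6 ± 2.44 and 40.2 ± 2.73 CPM. Reads assigned to the copies thus moved the size of the change in both genes without turning it. Map1lc3b with Gm6055 had a log2 fold change of 0.29 (adjusted p = 0.00111).

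In 2 cases the copy decided the value. Atp6v0c, the proton-carrying c subunit, was at 3.25, 6.05 and 6.90 CPM and at 3.23, 2.90 and 3.55 CPM, far below its pseudogene Atp6v0c-ps2 at 47.4, 44.5 and 46.6 CPM and 38.3, 36.8 and 40.8 CPM. The gene alone changed by -0.74 (SE 0.25, adjusted p = 0.0249) with overlapping groups, a call that ended without control replicates 2 or 3 or AMI-5 replicates 1 or 2 (-0.73 to -0.53). Gene and copy together gave -0.30 (adjusted p = 0.00194). Atg4a-ps, annotated as protein-coding but named as a pseudogene of Atg4a, had 6 reads in all controls and 286 with AMI-5, a difference of 4.73 on the log2 scale (SE 0.33, adjusted p = 1.87e-07). Atg4a, named after its values were seen, was not called alone (-0.21, adjusted p = 0.280) and was higher together with that copy (0.65, adjusted p = 0.00106). How the authors treated reads that map to several places is not given in the sources used here, so the split between gene and copy is uncertain.

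**Figure D4:**
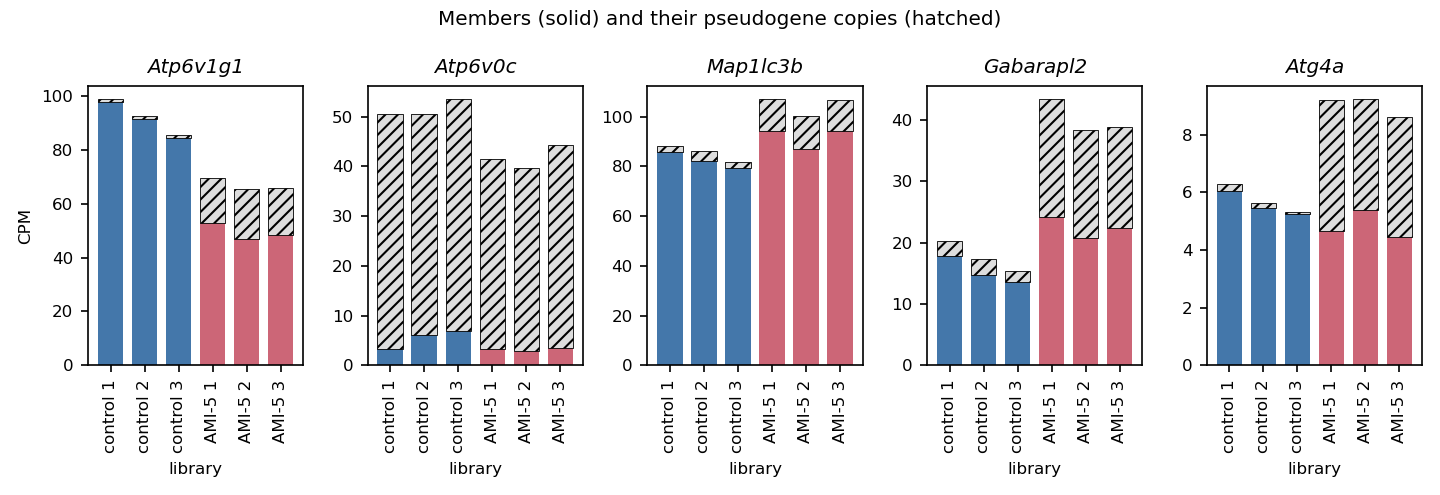
CPM of 5 members (solid, blue for control and red for AMI-5) with their pseudogene copies stacked on top (hatched) in each of the 6 libraries, each panel on its own axis from 0. The hatched part is larger with AMI-5 for Atp6v1g1, Map1lc3b, Gabarapl2 and Atg4a, and for Atp6v0c it exceeds the solid part in every library.

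The fold changes were also fitted with their trends against exonic GC content and exon length removed. When both trends were taken over all 17519 genes, 22.6% of genes were higher and 32.4% lower. Of the 14571 protein-coding genes among them, 2538 were higher and 5035 lower. The 67 members gave 19 higher and 18 lower (28.4% and 26.9%). Of the 25 genes higher as counted, 10 were still higher (Atg4a-ps, Ctsb, Ctsc, Ctsd, Ctsh, Gabarapl2, Lamp2, Map1lc3b, Sqstm1 and Ulk2) and 4 were lower (Atg10, Atp6v1d, Ctss and Gabarap). Of the 14 lower genes, 7 were still lower (Atg101, Atp6v0a2, Atp6v0b, Atp6v1f, Atp6v1g1, Gabarapl1 and Map1lc3a) and Atg2a was higher. That fit includes the processed pseudogenes. Among the 10915 protein-coding genes that share under 5% of their 50-mers with another gene, trend removal gave 15.0% higher and 23.5% lower, and 46 members gave 11 higher and 6 lower. There, 8 of the 18 higher genes that could be fitted kept their call (Atp6v1a, Ctsc, Ctsh, Ctso, Ctss, Gabarap, Lamp2 and Ulk2), 3 of 7 lower ones did (Atg101, Map1lc3a and Ulk1), and none turned. Ctsc, Ctsh, Lamp2 and Ulk2 were higher, and Atg101 and Map1lc3a lower, in all 3 fits.

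**Figure D5:**
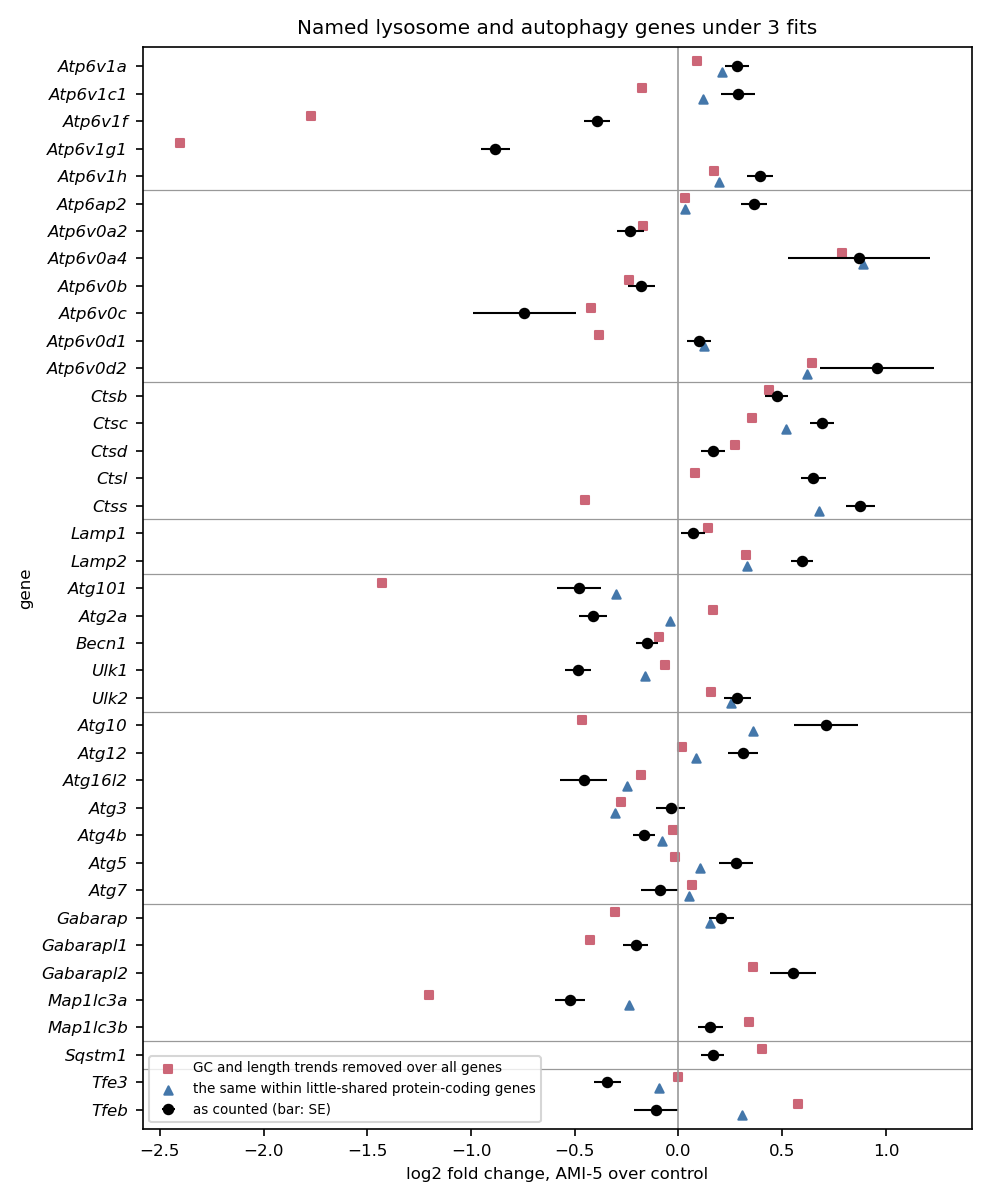
Log2 fold change of AMI-5 over control for named genes in rows by role: black points with SE bars as counted, red squares after trend removal over all genes, and blue triangles after trend removal among little-shared protein-coding genes. Lamp2 and Ctsc stay to the right and Map1lc3a and Atg101 to the left in all 3, while Ctss and Gabarap change sides in the red squares only. Atg4a-ps, at 4.73, is not drawn.

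The 10 genes that were not tested had few or no reads. Ctsj, Ctsm, Ctsq and Ctsr, placental cathepsins of rodents, had 0 reads in all 6 libraries, as did Atp6v1fnb and Atp6v1g3, a G subunit of the kidney. A count of 0 allows up to 0.0777 CPM over the controls and 0.0424 CPM over the AMI-5 libraries (3 reads, counting error only). Ctsg, the neutrophil and mast cell protease, had 4 reads in controls and 25 with AMI-5, Ctsw of cytotoxic lymphocytes 13 and 10, Atp6v1c2 3 and 8, and the testis form Atp6v1e2 1 and 0. Of the pump isoforms with reads, the common ones held most of the level: per kilobase Atp6v1b2 held 98.7% ± 0.06 of the B subunits in controls and 99.0% ± 0.12 with AMI-5, and Atp6v0d1 98.5% ± 0.65 and 97.3% ± 0.41 of the d subunits (SD, n = 3).

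Other genes of the same organelles were read from lists, whose counts stand beside 20.1% higher and 30.6% lower among protein-coding genes. Counts with totals-only scaling stand beside 14.5% and 38.9%. With the trends removed over all genes, 2538 of 14571 protein-coding genes were higher and 5035 lower. Trend removal among little-shared genes gave 15.0% higher and 23.5% lower. Of 38 further lysosomal hydrolases and cofactors, 16 were higher and 5 lower (median 0.12; 10 and 9 with totals-only scaling, and 13 and 4 with the trends removed). Its lower genes numbered 3 without control replicate 1 or AMI-5 replicate 2. Gm2a, the activator protein for ganglioside GM2, rose from 29.0, 29.3 and 27.1 CPM to 51.8, 57.6 and 50.4 CPM (0.90, SE 0.07, adjusted p = 8.72e-07), and Lipa, the acid lipase, from 61.6, 64.8 and 61.0 CPM to 92.2, 98.0 and 98.3 CPM (0.62, SE 0.06, adjusted p = 2.72e-06). The acid phosphatase Acp5 (-0.56) and the beta-glucuronidase Gusb (-0.34) were lower. Of 20 further lysosomal membrane genes matched, 6 were higher, led by the cholesterol exporter Npc1 (0.42) and by Laptm4b (0.34). The other called genes, 5 in number, were lower, led by the tetraspanin Cd63 (-0.65) and by Cln3 (-0.39). With the trends removed Laptm4b was called lower over all genes (-0.14) and higher among little-shared genes (0.27). The counts were 3 and 6 with totals-only scaling and also with the trends removed over all genes. Trend removal among little-shared genes gave 3 and 1 of 14.

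Of 13 genes that sort enzymes to the lysosome, 2 were higher and 6 lower (3 and 5 with upper-quartile scaling). The higher ones were the retromer subunits Vps35 (132, 128 and 126 CPM against 195, 181 and 196 CPM; 0.57, SE 0.06, adjusted p = 4.88e-06) and Vps26a (0.39). Nagpa, which uncovers the mannose 6-phosphate tag, and the adaptor Gga1 had the largest falls (-0.43 and -0.42). With the trends removed over all genes Nagpa was at 0.02 and Gga1 was higher (0.32, adjusted p = 0.000133), and among little-shared genes neither was called (-0.16 and -0.08). Of 28 genes of nutrient sensing at the lysosome, 7 were higher and 10 lower (3 and 15 with totals-only scaling, 3 and 8 without control replicate 2). Fnip1, the partner of folliculin, was higher (0.68) and so was Mitf, a relative of Tfeb (0.61), whereas the Ragulator subunit Lamtor4 (-0.57) and the mTORC1 inhibitor Ddit4 (-0.57) were lower.

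Of 20 other autophagy genes, 5 were higher and 6 lower, close to the shares among protein-coding genes, and without AMI-5 replicate 1 the higher ones numbered 8. Vmp1, a lipid scramblase of the endoplasmic reticulum that autophagosome formation needs, rose from 63.5, 59.2 and 60.2 CPM to 103, 107 and 103 CPM (0.77, SE 0.06, adjusted p = 3.09e-07), and Wdr45, a relative of the WIPI proteins, was higher as well (0.40). Nrbf2 of the lipid kinase complex (-0.44, with 65.8% of its 50-mers shared) and the fusion protein Vamp8 (-0.43) were lower. Of 19 cargo receptors other than Sqstm1, 12 were higher and 3 lower (median 0.24). The counts were 10 and 4 with totals-only scaling, 9 and 1 after trend removal over all genes, and 4 and 0 of 13 with the trends removed among little-shared genes. The mitophagy receptor Bnip3 was at 8.91, 11.4 and 8.34 CPM in controls and at 43.3, 56.4 and 37.1 CPM with AMI-5 (2.25, SE 0.19, adjusted p = 3.42e-05). Ccpg1, a receptor for endoplasmic reticulum, was at 6.67, 5.83 and 6.97 CPM and at 17.1, 15.6 and 18.7 CPM (1.40, SE 0.12, adjusted p = 1.19e-06). Other genes share 47.2% of the 50-mers of Bnip3 and 53.6% of those of Ccpg1, so the split of their reads is uncertain. The lower genes were led by the mitophagy receptors Fkbp8 (-0.51; -0.09 and not called with the trends removed) and Bcl2l13 (-0.28).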

How the data were processed

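Each of the 6 samples gave 1 library, and the values used are read counts per gene as deposited by the authors, not normalized, in 1 table. The tools named in the submitters' processing notes are featureCounts 1.6.2, GSNAP 2018-05-30 and bcl2fastq 2.19.1, with build mm10. The table's name points to Ensembl release 87, and its length column, also deposited by the authors, holds bases of merged exons. Symbols, gene classes, GC content and shared 50-mers came from GENCODE M21, which held 49412 of 49671 genes. The 92 spike-in sequences, with 1 read in all, were left out.

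The test was that of edgeR 4.0.16 under R 4.3.3 (TMM, filterByExpr by group, robust quasi-likelihood fit, two-sided F test, group as the only term), with Benjamini-Hochberg adjustment over all genes tested and a threshold of 0.05. The common biological coefficient of variation was 9.65%. Alternatives were other scalings, other filters, DESeq2 1.42.0, voom of limma 3.58.1, the replicate number as a block, spline removal of GC and length trends (5 degrees of freedom each), little-shared protein-coding genes alone, leaving out each library, and, chosen after seeing the data, adding pseudogene copies that hold at least 3% of a member's 50-mers. Chi-square values per degree of freedom between libraries of one group were 6.71 to 16.1, above counting noise, so each library was kept as a sample of its own. The edgeR and trend steps were tested on simulated data.

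Members are named if they belong to a fixed set of core genes, are among the 3 largest called changes of their role in a direction, or have the role's highest CPM per kilobase. Of each other list, the 2 largest called changes in a direction are named. The members, lists and rules were chosen with earlier results of these data known. In the lists, 2 symbols (Tmem55a and Tmem55b) were not matched.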

Additional observations from a re-analysis of the deposited data

How the results depend on the processing

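Of the 2 counts over the 67 members, the higher genes numbered 25 as reported, 16 with totals-only scaling and 11 of 46 among little-shared genes with trends removed, and the lower genes 14, 23 and 6, with 6 also among little-shared genes as counted (fewer members are tested there). Leaving out 1 library gave 20 to 25 higher and 9 to 13 lower. No pairing by replicate number was visible: same-numbered deviations correlated at -0.058, -0.038 and -0.048. This cannot show whether same-numbered libraries shared a litter or a day, which the labels do not say. A fit with the replicate number as a block gave 22 higher and 14 lower members. Of 44 named genes followed across the fits, which leave out Atp6v1d, only Atp6v0a4 lost its call there. Removing GC and length trends over all genes turned 9 of these 44 genes: Atg10 (-0.47), Atg2a (0.17), Atg5 (-0.016), Atg7 (0.063), Atp6v0d1 (-0.38), Atp6v1c1 (-0.17), Ctss (-0.45), Gabarap (-0.30) and Tfeb (0.58). Outside the 44, Atp6v1d turned as well (-1.26). The cause was not tested. With trends removed among little-shared genes, Atg7 (0.049), Tfeb (0.31) and Ctsz (0.029) turned. Atg3 turned with upper-quartile scaling (0.0095), among little-shared genes (0.014) and without AMI-5 replicate 2 (0.031, in a range of -0.074 to 0.031 when 1 library was left out) and passed the test after trend removal over all genes (-0.28) and among little-shared genes (-0.31), Lamp1 turned with totals-only scaling (-0.021), and Atg4a with its copy added (0.65). RLE scaling and limma voom each left 42 of the 44 on the same side of the threshold, and DESeq2 39. Depth limits the low genes most: Atp6v0a4 rests on 19 control reads and Atg4a-ps on 6.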
